A study of Mus musculus with 11 samples.

Results

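The genes described here encode enzymes that build cholesterol: Hmgcs1, Mvk, Idi1, Fdps, Fdft1, Sqle and Cyp51, 7 of the 8251 genes named on the array. All probe sets annotated to 1 of these symbols were taken, which gave 11 of 12488 probe sets. Each array held the messenger RNA of the whole brain of 1 mouse of strain C57BL/6J, aged 6 to 9 weeks and untreated. Null mice lacked β4, a subunit of nicotinic receptors. They were 2 males of 9 weeks (null 1 and 2) and 3 females of 7 to 8 weeks (null 3 to 5). Their 6 wild-type littermates were 4 males (wild-type 1, 2, 4 and 6) and 2 females (wild-type 3 and 5) of 6 to 9 weeks. The animal numbers of all null mice and of wild-type 1 to 3 begin with B4, and those of wild-type 4 to 6, all 6 weeks old, with LT. The labels name no other allele and no driver line. Chrnb4, the gene of that subunit, was not analysed here, so the genotype labels were not checked against it. In bulk tissue, fewer cells of a type and less RNA per cell cannot be told apart.

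The brain makes nearly all of its own cholesterol, because lipoproteins of the blood do not cross the blood-brain barrier, and much of it ends up in myelin. Synthesis starts from acetyl units, runs through mevalonate and farnesyl diphosphate to squalene, and closes with the ring-forming and trimming steps that turn squalene into sterols. The transcription factor SREBP-2 switches on most genes of the route when sterols in the endoplasmic reticulum run low, usually together with nuclear factor Y and Sp1. All 7 genes encode enzymes of synthesis. None encodes an uptake receptor, so uptake and transport genes are given below from a separate list.

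In the RefSeq promoter table of build GRCm38.p6, 4 of the 7 genes matched: Hmgcs1, Mvk, Idi1 and Cyp51. The 250 bases before each start given there are shown because SREBP-2 and its partners are known to act on sterol-responsive genes through short motifs close to the start. For Mvk the window ends at base 114444268, past the first base of the annotated gene (114444264). Capitals mark matches, on either strand, to the sterol regulatory element TCACNCCAC and to the nuclear factor Y box CCAAT.
Hmgcs1, chr13:119690101-119690350, + strand: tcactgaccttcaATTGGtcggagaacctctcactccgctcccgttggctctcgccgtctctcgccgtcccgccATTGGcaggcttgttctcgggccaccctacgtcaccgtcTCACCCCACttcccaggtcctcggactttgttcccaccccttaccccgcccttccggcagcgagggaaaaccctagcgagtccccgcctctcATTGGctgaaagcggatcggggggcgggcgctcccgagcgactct
Mvk, chr5:114444019-114444268, + strand: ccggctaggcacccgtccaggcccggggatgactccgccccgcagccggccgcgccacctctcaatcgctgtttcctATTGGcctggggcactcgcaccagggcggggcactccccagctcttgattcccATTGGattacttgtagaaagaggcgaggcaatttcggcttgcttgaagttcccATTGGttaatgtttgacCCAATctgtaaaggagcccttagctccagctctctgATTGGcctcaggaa
Idi1, chr13:8885356-8885605, + strand: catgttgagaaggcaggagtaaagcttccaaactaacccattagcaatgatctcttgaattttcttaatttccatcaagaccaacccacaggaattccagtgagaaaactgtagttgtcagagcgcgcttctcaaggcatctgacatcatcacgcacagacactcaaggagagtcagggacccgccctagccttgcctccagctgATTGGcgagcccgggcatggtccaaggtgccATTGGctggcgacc
Cyp51, chr5:4104698-4104947, - strand: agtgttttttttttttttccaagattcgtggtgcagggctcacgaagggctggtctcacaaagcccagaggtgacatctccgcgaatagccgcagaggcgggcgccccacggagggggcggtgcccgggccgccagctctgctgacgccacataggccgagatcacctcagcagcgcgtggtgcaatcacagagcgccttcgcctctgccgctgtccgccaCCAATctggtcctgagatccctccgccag
A nuclear factor Y box was present in 4 of 4 promoters, with 11 matches, against 33.8% of all 32851 promoters of that length. A GC box, GGGCGG, which Sp1 binds, was also present in 4 of 4, against 32.7% of all, and the E-box CACGTG in 0 of 4, against 6.02%. TCACNCCAC matched once, in Hmgcs1, 137 to 129 bases before the start, and is found in 1.05% of all promoters. In Mvk, 4 boxes on the reverse strand lay 53 bases apart, each from the next, and 1 more lay on the forward strand. These matches describe the letters only and show no binding.

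Signals are MAS5 intensities on a linear scale, and each array had the same mean after trimming (150.1). Differences are null minus wild-type log2 signals from limma, with Benjamini-Hochberg adjustment over all 7453 probe sets bright enough to test (mean signal of at least 25.8) and a threshold of 0.05. Of the 11 probe sets, 9 passed that limit, at least 1 for each gene. Mvk and Fdps were read by several probe sets, written here by their suffix as Mvk-r and Mvk-f, and as Fdps-at and Fdps-f for those bright enough to test. The suffix f marks probes that match a sequence family and r probes that broke a design rule. The arrays of both male null brains stood apart from the other 9. Their first principal component scores were 47.2 and 49.2, against -16.3 to -2.03. The ratio of the 3′ to the 5′ control signal of Gapdh, a measure of how far labelling reached along a transcript, was 0.859 and 0.798 in the male null arrays, 2.19 to 3.58 in the female null arrays and 3.57 to 5.92 in the wild-type arrays. The same ratio of Actb averaged 2.61 ± 1.15 (SD, n = 5) on null arrays, against 4.42 ± 0.636 (SD, n = 6) on wild-type arrays (two-sided exact permutation p = 0.00433). For the 7 genes, and for the genes of the 6 pathway lists that passed in males, differences within females, which leave those 2 arrays out, are therefore given as well. These too compare arrays of unlike Gapdh ratio, 2.19 to 3.58 for null females against 3.91 and 3.81 for wild-type 3 and 5.

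Over both sexes, with sex in the model, no probe set of the cholesterol genes passed the threshold (0 of 9, limma), against 2 of all 7453, or 0.0268%. At an unadjusted p under 0.05 there were 5 of 9, against 23.1% of all. The lowest adjusted p was 0.101, for Idi1. The median difference of the 9 probe sets was -0.23, against 0.03 over all tested probe sets. Within males, 2 null against 4 wild-type brains, 5 of the 9 passed, 3 higher and 2 lower in null brains, against 32.6% of all probe sets (17.8% higher, 14.8% lower). Both tested probe sets of Fdps and both of Mvk are among these 5. By the brightest probe set of each gene, 3 of 7 genes passed, against the same 32.6%. Within females, 3 null against 2 wild-type brains, 0 of 9 passed and 0 of all 7453 did (0%, limma), with 1 of 9 and 4.13% at an unadjusted p under 0.05. Without the male null brains 0 of 9 passed for genotype (limma, 0% of all, and 3.54% at an unadjusted p under 0.05). With sex in the model that difference comes from the same 3 null and 2 wild-type females, so it is no separate check. The spread behind these tests is that between mice. For the tests within males and within females it was estimated in 1 fit to all 11 arrays, so each test shares its spread with the other sex. Of all male calls 54.7% were higher in null brains, against 44% after quantile normalization and 27.6% after centring each array on its median, where the median of all male differences was -0.08 and -0.23 in place of 0.05. The count over both sexes depended on single wild-type females. Without wild-type 5 it was 4 of 9, with Fdps-at at 1.79 (limma adjusted p = 0.026), Fdps-f at 0.73 (0.0316), Idi1 at -0.59 (0.048) and Mvk-f at -1.50 (0.0482), and 877 of all probe sets passed. Without wild-type 3 it was 1 of 9, Idi1 (-0.71, limma adjusted p = 0.0463), and 195 of all.

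**Figure D1:**
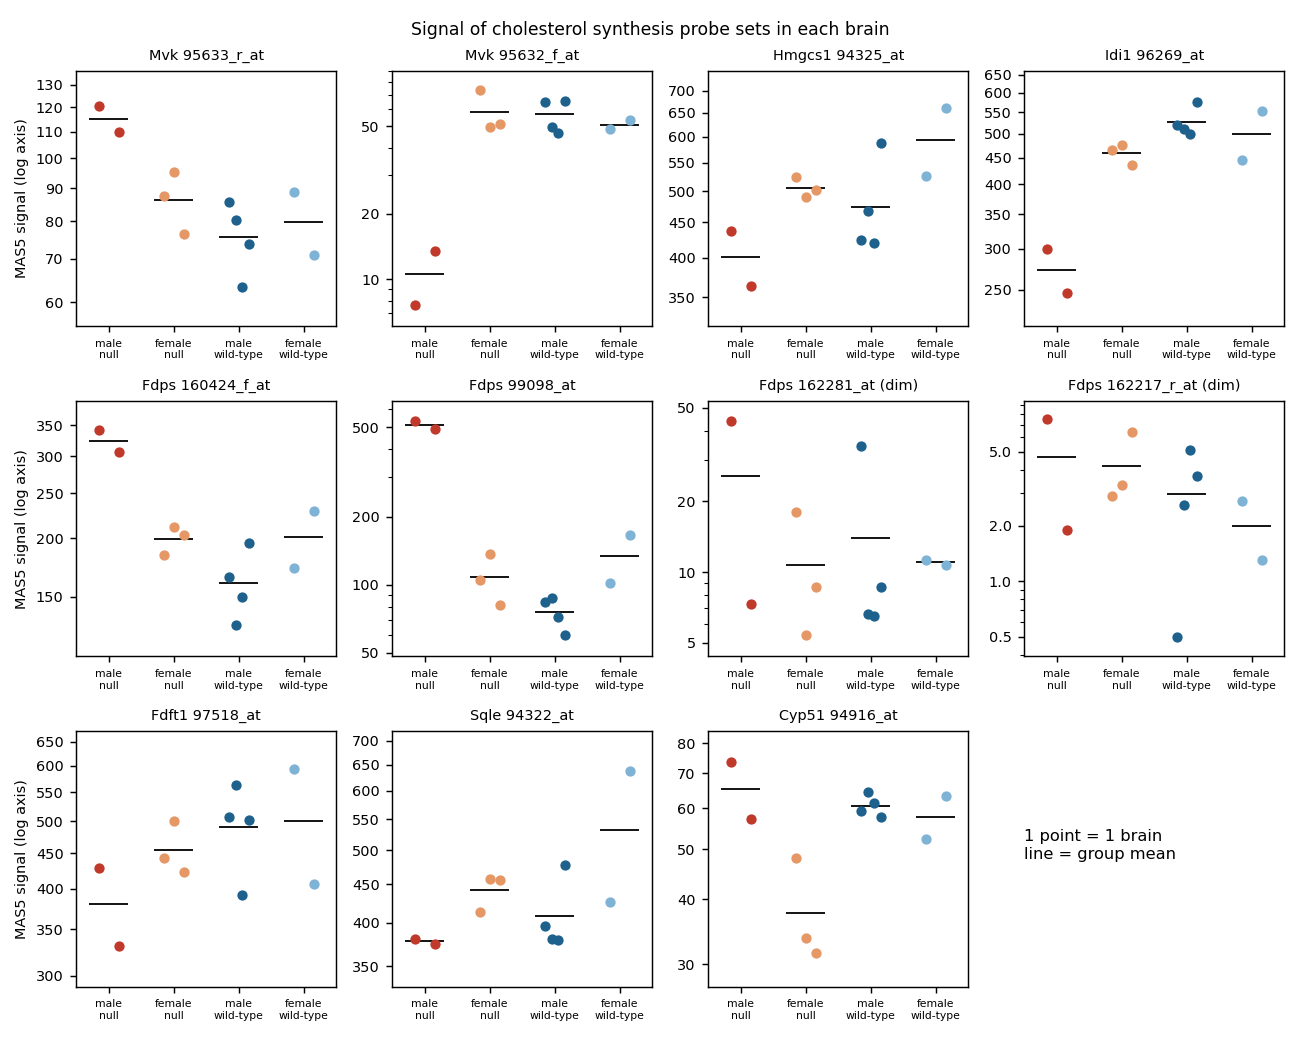
MAS5 signal (log axis) of the 11 probe sets in each brain, in male null, female null, male wild-type and female wild-type mice. Points are brains and lines are group means, and panel titles give the probe set IDs (ending in f for Fdps-f and Mvk-f, in r for Mvk-r). The 2 male null brains lie outside all other brains for 5 of the 9 probe sets tested, while Cyp51 is lowest in the 3 female null brains.

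Hmgcs1 makes hydroxymethylglutaryl-CoA in the cytosol, the first dedicated building block of the route. It had signals of 436.7, 363.7, 523.6, 489.4 and 502.1 in null brains 1 to 5, and of 423.9, 467.2, 525.8, 419.8, 660.8 and 586.7 in wild-type brains 1 to 6. The groups overlapped, and the highest brain was wild-type 5, a female. Null brains averaged 463.1 ± 64.1 (SD, n = 5), against 514 ± 96.1 (SD, n = 6) for wild-type brains, a log2 difference of -0.23 (SE 0.13, limma adjusted p = 0.282). The difference was -0.24 in males and -0.22 in females. Centring each array on its median gave -0.52 in males (limma adjusted p = 0.0374).

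Mvk, mevalonate kinase, adds the first phosphate to mevalonate. It was read by a pair of probe sets that the annotation table assigns to the same sequence record, and in male null brains they differed in direction. The brighter, Mvk-r, had 120.3 and 110 in male null brains, 87.4, 95.2 and 76.4 in female null brains, and 63.2 to 88.9 in wild-type brains (median 77). The other, Mvk-f, had 7.6 and 13.5 in male null brains, 73.1, 49.7 and 51.4 in female null brains, and 46.9 to 65.6 in wild-type brains (median 51.65). Both male null brains lay above all others in the one probe set and below all others in the other. In males Mvk-r rose, with a log2 difference of 0.61 (SE 0.20, limma adjusted p = 0.0327), and Mvk-f fell, with -2.47 (SE 0.32, limma adjusted p = 0.00013). The call of Mvk-r was lost after quantile normalization (0.37, limma adjusted p = 0.178) and median centring (0.33, 0.241), with age (0.41, 0.206) or the number letters (0.46, 0.0985) in the model, and among the B4 mice (0.47, 0.127). It was also lost without wild-type 4 (0.53, limma adjusted p = 0.0671), wild-type 6 (0.60, 0.0584), null 1 (0.55, 0.188) or null 2 (0.68, 0.109). In females the differences were 0.12 and 0.17. The signals of 7.6 and 13.5 lay under the limit of 25.8 that was set on the mean of a probe set. No direction can be given for Mvk from these probe sets.

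Idi1, isopentenyl diphosphate isomerase, balances the pair of isoprene units from which all later products are made. Its signal was 300.1 and 246.6 in male null brains, 465.2, 476.1 and 435.6 in female null brains, and 519.2, 511.1, 444.9, 499.8, 554.1 and 577.2 in wild-type brains. Both male null brains lay far below the rest, and null 5, a female, also lay under every wild-type brain. Null brains averaged 384.7 ± 104.5 (SD, n = 5), against 517.7 ± 45.9 (SD, n = 6) for wild-type brains (-0.55, SE 0.16, limma adjusted p = 0.101). In males Idi1 fell by 0.95 on the log2 scale (SE 0.14, limma adjusted p = 0.00034), and its level was 1.93-fold lower in null males. In females the difference was -0.11 (SE 0.15, limma adjusted p = 0.995), and the male and female differences differed from each other (0.84, limma adjusted p = 0.0163). That call was lost without wild-type 3 (0.68, limma adjusted p = 0.0591) or null 2 (0.70, 0.0966).

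Fdps, farnesyl diphosphate synthase, makes the branch point metabolite from which sterols, prenyl anchors of proteins, dolichol and ubiquinone are drawn. Fdps-at had 532.5 and 490.4 in male null brains, 104.9, 137.3 and 81.3 in female null brains, and 83.8, 87, 101.7, 72, 166 and 59.7 in wild-type brains. Both male null brains lay above every other brain, and the female null brains lay within the wild-type range. In males Fdps rose by this probe set, with a log2 difference of 2.77 (SE 0.25, limma adjusted p = 1.35e-05), a fold of 6.83. Fdps-f had 341.7 and 306.1 in male null brains, 184.6, 211.4 and 203.4 in female null brains, and 130.3 to 229.2 in wild-type brains (median 169.2). It rose in males too, by a smaller amount (1.03, SE 0.18, limma adjusted p = 0.00115, a fold of 2.04). In females the differences were -0.30 for Fdps-at and 0.0021 for Fdps-f. Over both sexes they were 1.32 (SE 0.46, limma adjusted p = 0.13) and 0.54 (SE 0.20, limma adjusted p = 0.14). The remaining probe sets of Fdps were too dim to test. The signal of the one was 5.4 to 43.8 in null and 6.5 to 34.3 in wild-type brains, and that of the other, with suffix r, 1.9 to 7.5 in null and 0.5 to 5.1 in wild-type brains.

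Fdft1, squalene synthase, joins a pair of farnesyl units in the first step that leads to sterols alone. Its signals were 428.5, 331.1, 441.9, 500.4 and 422.9 in null brains 1 to 5, and 507.3, 562.9, 594.6, 391.5, 406.5 and 502.2 in wild-type brains 1 to 6. The groups overlapped, with the lowest signal in null 2 and the highest in wild-type 3. Null brains averaged 425 ± 60.8 (SD, n = 5), against 494.2 ± 81.6 (SD, n = 6) for wild-type brains (-0.25, SE 0.15, limma adjusted p = 0.319). The difference was -0.12 in females and -0.37 in males (limma adjusted p = 0.156), where it passed after median centring (-0.65, limma adjusted p = 0.026), within B4 animals (-0.50, limma adjusted p = 0.0398) and with the number letters as a block (-0.55, limma adjusted p = 0.0235).

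Sqle, squalene epoxidase, adds the oxygen that lets squalene close into a ring. Its signals were 380.4, 375.2, 413.2, 457.7 and 456.4 in null brains 1 to 5, and 396, 380.8, 426.1, 379.6, 638.5 and 477.4 in wild-type brains 1 to 6. One brain, wild-type 5, stood above the others, and the groups otherwise overlapped. Null brains averaged 416.6 ± 39.7 (SD, n = 5), against 449.7 ± 99.5 (SD, n = 6) for wild-type brains (-0.17, SE 0.13, limma adjusted p = 0.441). The difference in males was -0.11 and that in females -0.24, while the male values of Fdps-at and Idi1 were 2.77 and -0.95.

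Cyp51, lanosterol 14α-demethylase, takes a methyl group off the first sterol of the route. It had the pattern that none of the other probe sets had, with the low signals in the female null brains. Its signals were 73.6 and 57.1 in male null brains, 48, 33.7 and 31.5 in female null brains, and 59.1, 64.3, 52.2, 61.4, 63.2 and 57.8 in wild-type brains. The 3 female null brains lay below the 8 others, which 0.215% of all tested probe sets did. The mean in females was 37.7 ± 8.96 (SD, n = 3) for null brains, against 57.7 ± 7.78 (SD, n = 2) for wild-type brains. The log2 difference in females was -0.63 (SE 0.26, limma adjusted p = 0.995), which did not pass, and with 1 mouse left out it ranged from -0.82 to -0.49. In males it was 0.10, and the sign turned to -0.17 after quantile normalization and to -0.19 after median centring. The test of the female against the male difference gave -0.73 (SE 0.36, limma adjusted p = 0.191).

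**Figure D2:**
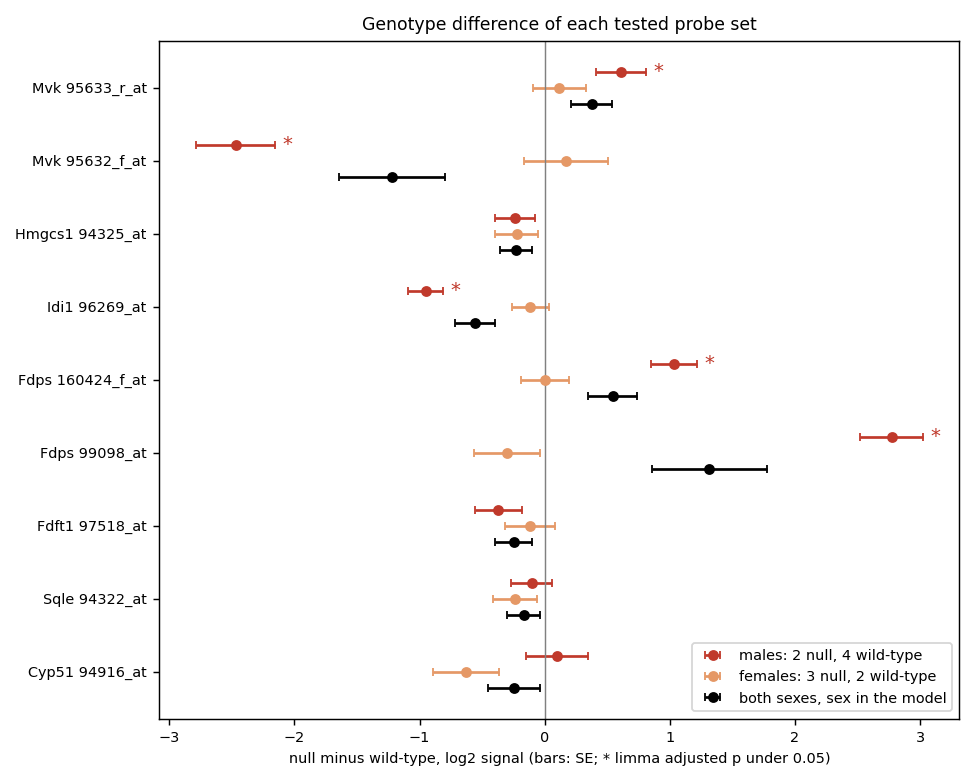
Log2 difference, null minus wild-type, of the 9 tested probe sets within males, within females and over both sexes. Bars are standard errors and stars mark a limma adjusted p under 0.05. Stars occur only within males, on 5 probe sets, from -2.47 for Mvk-f to 2.77 for Fdps-at.

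The genotype difference of 4 probe sets differed between the sexes in the interaction model, against 15.9% of all probe sets (1187 of 7453; 7.25% more positive and 8.68% more negative in females). These were Fdps-at (-3.07, female minus male difference, limma adjusted p = 0.000642), Mvk-f (2.64, limma adjusted p = 0.00373), Idi1 (0.84) and Fdps-f (-1.03, limma adjusted p = 0.0215). By the brightest probe set of each gene, 2 of 7 genes passed, against the same 15.9%. The call of Fdps-f was lost after median centring (-0.81, limma adjusted p = 0.054), among B4 animals (-0.94, 0.0585), and without wild-type 5 (-0.82, 0.115), null 1 (-0.95, 0.0903) or null 2 (-1.11, 0.0633). Both male null brains lay above the 9 others for 3 probe sets, as for 20.7% of all, and below them for 2, as for 16.5%. They also had the lowest Gapdh ratios, so within males genotype and this ratio cannot be told apart. Nor can they within females, where the null arrays had 2.19 to 3.58 and wild-type 3 and 5 had 3.91 and 3.81. Among animals with B4 numbers alone, where 2 of the wild-type males remain, the male differences were 2.58 for Fdps-at, 1.14 for Fdps-f, -0.92 for Idi1 and -2.49 for Mvk-f. With the Gapdh ratio in the model, 0 of the 9 probe sets passed in males or for the interaction (limma; 0 of all 7453 passed in either), and the male differences were 1.74, 0.64, -1.38 and -3.28. Without the male null brains the genotype differences were again those within females, -0.30, 0.0021, -0.11 and 0.17.

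**Figure D3:**
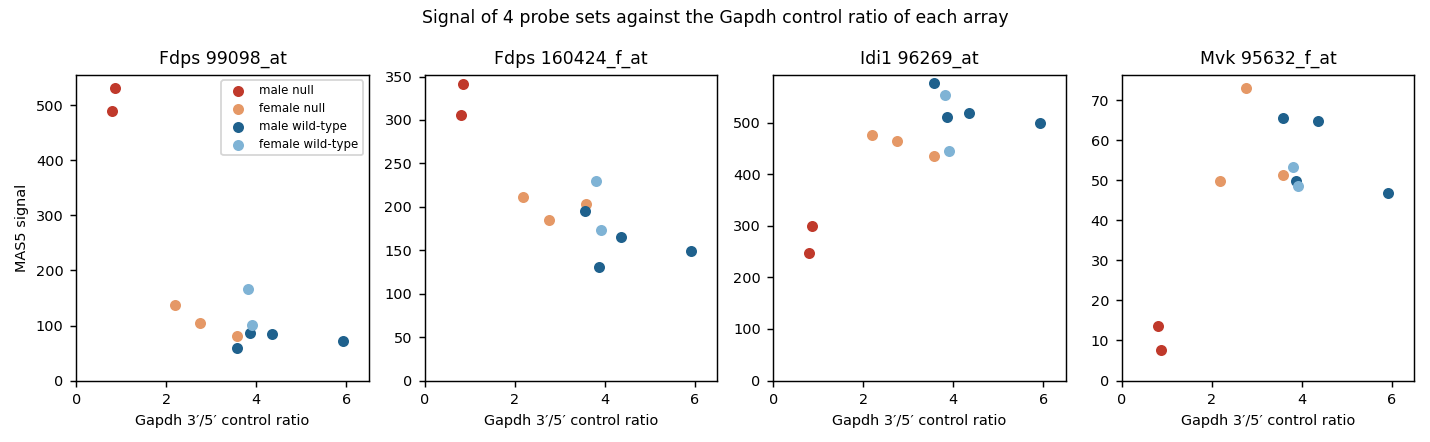
MAS5 signal of Fdps-at, Fdps-f, Idi1 and Mvk-f against the Gapdh 3′/5′ control ratio of the same array. Each point is 1 brain, in male null, female null, male wild-type and female wild-type mice. The 2 male null brains, with ratios of 0.859 and 0.798, hold the highest signals of Fdps and the lowest of Idi1 and of this Mvk probe set.

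Markers of cell types were also tested within males, where 17.8% of all probe sets passed higher and 14.8% lower in null brains, 32.6% in all. The summed signals take in all markers of a list on the array, also those too dim to test. These were 9 each for oligodendrocytes, astrocytes and microglia, and 5 for choroid plexus. The brightest markers weigh most in a sum, such as Hba-a1 for red cells and Snap25 for neurons. Snap25 had a male difference of -0.31 (limma adjusted p = 0.11). Of 10 neuron markers tested, 7 were higher in male null brains by limma, and the summed signal of all 11 was 14630 to 15110 in male null, 12200 to 13150 in female null and 10390 to 12850 in wild-type brains. Of 8 oligodendrocyte markers, 2 were higher and 1 lower, with sums of 7366 to 7706, 6495 to 7288 and 5932 to 8940 in the same 3 groups. Of 8 astrocyte markers, 2 were higher and 1 lower (7322 to 8342, 7339 to 7782 and 6483 to 7807). Of 8 microglia markers, 3 were higher and 2 lower (2254 to 2653, 1847 to 2113 and 1933 to 2325), and of 3 choroid plexus markers 2 were lower (700.2 to 946.2, 1218 to 1456 and 1018 to 1801). Of 7 endothelial and 2 erythroid markers, 0 passed in males (limma), with sums of 684.8 to 762.8, 513.8 to 540.1 and 532 to 811.9 for endothelium and of 2159 to 2191, 3694 to 5716 and 2355 to 6073 for red cells. Within females 0 markers of these lists passed (limma), as did 0 of all probe sets. No marker of these lists was at 0 on any array, and the part of these levels in the results for the cholesterol genes was not tested.

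Sex itself gave no call. With genotype in the model 0 of 9 probe sets passed and 0 of all 7453 (0%, limma), with 3 of 9 and 12.4% at an unadjusted p under 0.05. Hmgcs1 had 540.3 ± 69 (SD, n = 5) in female and 449.7 ± 75.1 (SD, n = 6) in male brains (0.33, SE 0.13, limma adjusted p = 0.341). Sqle had 478.4 ± 91.6 (SD, n = 5) in female and 398.2 ± 39.4 (SD, n = 6) in male brains (0.30, SE 0.13, limma adjusted p = 0.378). For Hmgcs1 and Sqle the lowest brain was null 2, a male null brain (363.7 and 375.2), and the highest was wild-type 5, a female (660.8 and 638.5). The third was Mvk-f (1.11, limma adjusted p = 0.344), whose lowest signals were those of the male null brains.

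Whether the genes varied together from mouse to mouse was examined in the 9 brains other than the male null ones, with the brightest probe set of each gene. For Fdps that was Fdps-f. Fdps-at, lowest in wild-type 6 (59.7), where Sqle was 477.4, was not used in the correlations. Of 21 pairs, 11 had a positive and 10 a negative Pearson r, with a median of 0.03. Sqle and Fdps had the closest ranks (r = 0.83, exact permutation p = 0.00472, adjusted p = 0.0495 over 21 pairs; rho = 0.917, exact permutation p = 0.00131, adjusted p = 0.0275). Within the 6 B4 brains their r was 0.92 (exact permutation p = 0.00556, adjusted p = 0.0583), and without the 2 brains farthest from the median of Fdps it was 0.90 (n = 7, exact permutation p = 0.00655, adjusted p = 0.138). Among the B4 brains, Fdps-f was higher in every female null brain (184.6 to 211.4) than in any wild-type one (130.3 to 173.1). The r within them therefore includes this group difference, and the permutations did not hold genotype or sex fixed. Sqle and Hmgcs1 had r = 0.88 (exact permutation p = 0.00141, adjusted p = 0.0297; rho = 0.833, exact permutation p = 0.00827, adjusted p = 0.0868). That relation was 0.50 within the B4 brains (exact permutation p = 0.314) and 0.69 without the 2 brains farthest from the median of Hmgcs1 (exact permutation p = 0.081), so it rests in part on those brains, wild-type 4 and 5. Hmgcs1 and Fdps had r = 0.70 (exact permutation p = 0.0354, adjusted p = 0.248), and Idi1 and Cyp51 had r = 0.68 (exact permutation p = 0.0473, adjusted p = 0.2485). Cyp51 and Sqle had a negative r within the B4 brains (r = -0.96, exact permutation p = 0.00833, adjusted p = 0.0583), where its low values are those of the female null mice, and r = -0.05 over all 9. In the B4 brains r was also negative for Fdps and Cyp51 (-0.89, exact permutation p = 0.00694, adjusted p = 0.0583). The same held for Hmgcs1 and Idi1 (-0.85, exact permutation p = 0.0264, adjusted p = 0.1385). Over all 9 these pairs had -0.49 and 0.325.

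**Figure D4:**
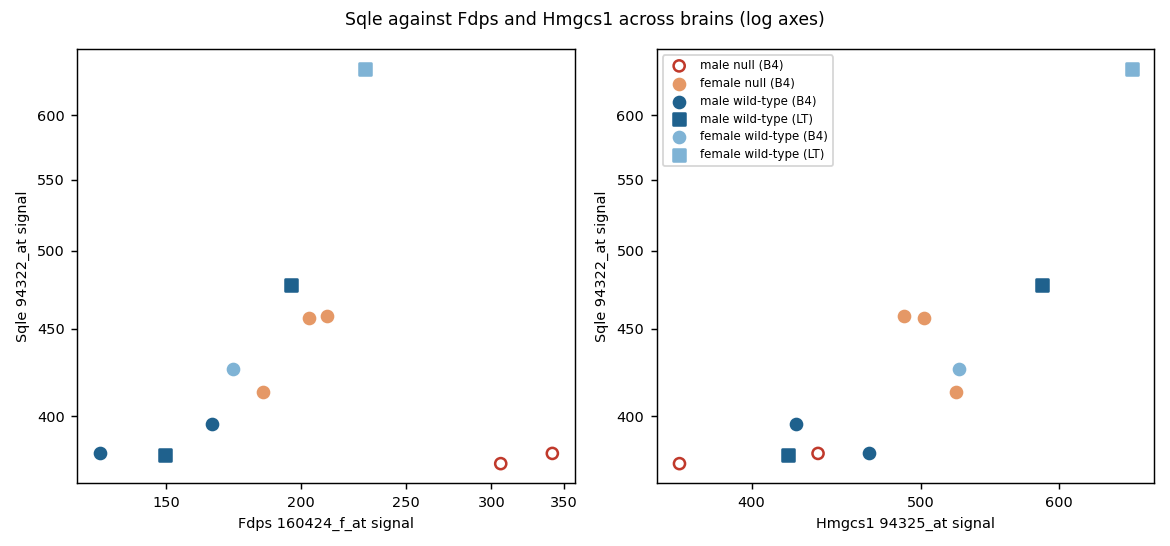
Signal of Sqle against Fdps-f (left) and Hmgcs1 (right) in each brain, on log axes. Circles are B4 and squares LT animals, and open circles are the male null brains, which were left out of the correlations. Sqle follows Fdps-f in the 9 other brains (r = 0.83), and the male null brains lie apart at Fdps-f signals of 341.7 and 306.1.

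The probe sets most like the mean of the 7 standardized genes over these 9 brains were those of Lias, a lipoic acid synthase (r = 0.95), the kinase Stk16 (0.92), the endoplasmic reticulum protein Erp44 (0.90), the chromatin factor Morf4l2 (0.90) and Tmem62 (0.89). They were the highest of all named probe sets over 9 brains, and no test was made of them.

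Other genes of the pathway were taken from 6 lists, each gene through its brightest probe set, and none passed over both sexes (limma, 0.0268% of all probe sets). Of 14 listed genes for other steps of cholesterol synthesis 9 were tested, with a median difference of 0.02. Their extremes were Dhcr7, which makes the final reduction to cholesterol (0.60, limma adjusted p = 0.403), and the methylsterol oxidase Msmo1 (-0.52, limma adjusted p = 0.117). Msmo1 had 181.9 and 183.5 in male null brains, 308.6, 213.4 and 285.9 in female null brains and 257.8 to 375.5 in wild-type brains, and in males it fell by 0.80 on the log2 scale (limma adjusted p = 0.0077). It was the only 1 of the 9 to pass in males, against 32.6% of all probe sets. In females it was -0.20.

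Of 8 tested genes of uptake and transport inside the cell, the median was -0.07, from the lysosomal receptor Scarb2 (-0.27) to the lipoprotein receptor Lrp1 (0.27). In males Lrp1 alone passed, 1 of 8 against 32.6% of all probe sets (0.70, limma adjusted p = 0.00713), with -0.21 in females. Npc1, which moves cholesterol out of lysosomes, had a difference of -0.08. Of 8 genes of efflux, lipoproteins and turnover the median was 0.22, from Abcg1 (-0.16) to the lipid transporter Abca2 (1.01, limma adjusted p = 0.0773). Abca2 had 518.1 and 544.8 in male null brains, 251.1, 293.6 and 291.2 in female null brains and 168 to 218.7 in wild-type brains, so the null brains all lay above the wild-type ones, as they did for 0.59% of all probe sets. Its difference was 1.47 in males (limma adjusted p = 4.14e-05) and 0.50 in females (limma adjusted p = 0.995). The Gapdh ratio split the arrays nearly the same way (0.798 to 3.58 for null, 3.57 to 5.92 for wild-type). For Abca2, genotype and this ratio therefore cannot be told apart. Apod and Pltp also passed in males (0.86 and 0.78, with -0.068 and 0.28 in females), which made 3 of 8 against 32.6% of all probe sets. They were singled out after their values were seen, as were Npc1, Apoe, Srebf1, Mbtps1, Ggps1, Fnta and Fasn. Apoe, which encodes the main apolipoprotein of the brain, had -0.04 over both sexes and -0.31 in females.

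Of 9 regulators of sterol-responsive transcription the median was 0.18, from the liver X receptor Nr1h3 (-0.36) to the retinoid receptor Rxrb (0.28). Srebf1, which encodes SREBP-1, had 0.16 (limma adjusted p = 0.515). In males only Mbtps1, the protease that cleaves SREBP first, passed (0.65, limma adjusted p = 0.00568), 1 of 9 against 32.6% of all probe sets. Its difference was -0.26 in females, and the female and male differences differed (-0.92, limma adjusted p = 0.0152). Of 6 genes of the isoprenoid branches the median was -0.04, from Icmt (-0.49) to the Rab prenylation subunit Rabggta (1.02, limma adjusted p = 0.104), and in males Rabggta (1.84) and Ggps1 (0.98) passed higher and the prenyl transferase subunit Fnta (-0.73) lower, 3 of 6 against 32.6% of all probe sets. In females these differences were 0.10, 0.17 and -0.13. Of 8 genes of fatty acid synthesis that SREBP drives the median was -0.06, from Elovl6 (-0.38) to Elovl5 (0.36), with Elovl5 (0.70) higher and Fasn (-0.42) lower in males, 2 of 8 against 32.6% of all probe sets. In females they were -0.024 and -0.23. In females 0 genes of these 6 lists passed (limma adjusted p = 0.995 or more for each), as did 0 of all probe sets.

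**Figure D5:**
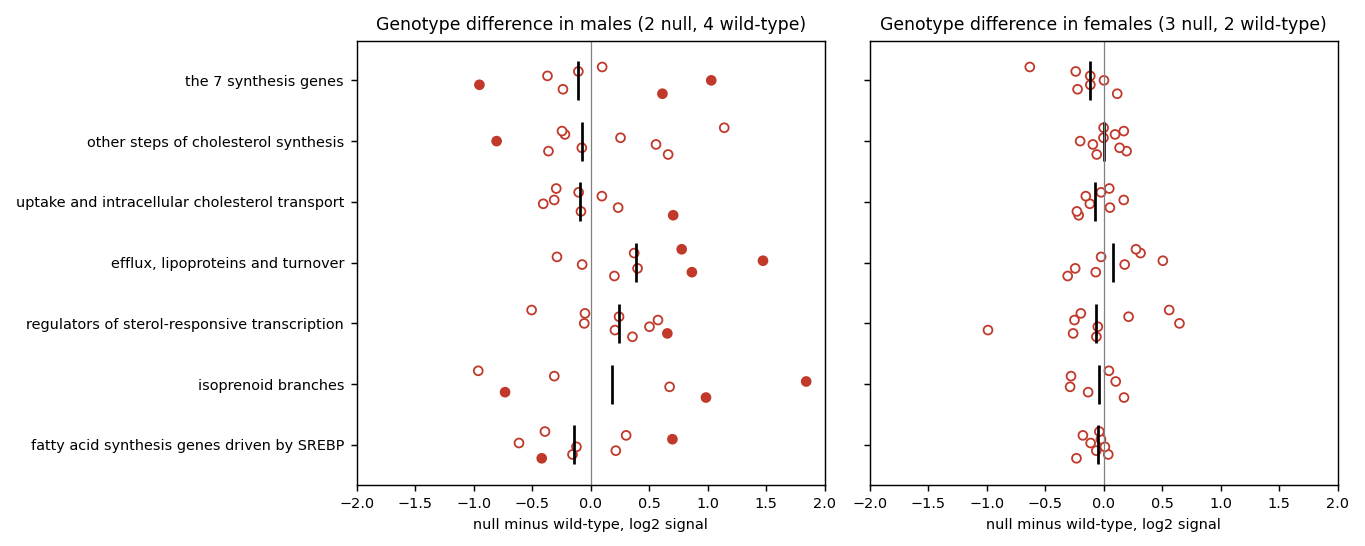
Log2 difference, null minus wild-type, of each tested gene of the 7 synthesis genes and of the 6 other lists, within males (left) and within females (right). Each circle is a gene, filled where limma adjusted p was under 0.05, and black lines are list medians. Filled circles occur in males in every list and in females in none.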

How the data were processed

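Gene expression was measured on 1 oligonucleotide array per mouse. Per the submitters' processing notes the deposited values are MAS5 signal intensities on a linear scale, 1 per probe set. No source used here gives the software version or settings, and detection calls were not used. GEO's platform annotation pairs 10855 probe sets with a single gene, 396 with several genes and 1237 with no gene, and a name was used where it was single.

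Signals under the 10th percentile of the table (3.1) were raised to it and log2 was taken. Control probe sets (66) and those with a mean log2 signal under the 40th percentile (4.69) were not tested. limma 3.58.1 in R 4.3.3 (lmFit, eBayes with a trend, Benjamini-Hochberg) was fitted to all 7453 remaining probe sets, with sex as a covariate, or with a mean for each genotype and sex. The scripts were tested on simulated data. Alternatives were other scalings, floors, filters and covariates, subsets of animals and leaving out each mouse. Replicate numbers follow the accession order and pair nothing. Members and lists were chosen with earlier results of these data known, and the rule for naming genes took all member probe sets, the extremes of each list over both sexes and the 5 genes most alike. The 9 genes outside that rule are marked in the text as singled out after their values were seen. The number of arrays limits the precision.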

Additional observations from a re-analysis of the deposited data

Results flagged for a closer look

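The results of 4 probe sets stood out because the genotype difference in females and that in males differed by the interaction test. The female minus male value was 2.64 for Mvk-f, 0.84 for Idi1, -1.03 for Fdps-f and -3.07 for Fdps-at. All 4 involve the 2 male null arrays, whose Gapdh ratios were 0.859 and 0.798. In 18 groups of brains (9 probe sets, null and wild-type) Dixon's test marked 0 brains, where chance marks about 1 group in 20. That test looks for a single brain apart and cannot be read for the 2 male null brains, which lie apart together.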

How the results depend on the processing

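No paired analysis was possible because the labels give no replicate numbers that null and wild-type mice share. Over both sexes 0 of the 9 probe sets passed under every alternative other than leaving out 1 mouse, which gave 0 to 4. Of all probe sets 2 passed, against 1 with quantile normalization, median centring, a filter at the 60th percentile or no sex covariate, 0 with no filter, with age, with the Gapdh ratio or without the male null arrays, 26 in B4 animals and 1 to 877 with 1 mouse left out. In males 5 of the 9 passed, against 0 with the Gapdh ratio, 6 with median centring, 4 with quantile normalization, age or the filter at the 60th percentile and 4 to 5 with 1 mouse left out, and for the interaction 4, against 0 with the Gapdh ratio, 3 with median centring, the filter at the 60th percentile or B4 animals and 2 to 4 with 1 mouse left out (2 without null 2). Pairs of genes called for correlation were 2, against 0 without the 2 farthest brains and 0 in B4 animals. The cause of these changes was not tested.

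Signs turned as follows. With quantile normalization Cyp51 in males was -0.17. With median centring Cyp51 in males was -0.19, Fdps-f in females -0.063 and the interaction of Sqle 0.085. With age, Mvk-r in females was -0.017, Sqle in males 0.0041 and the interaction of Hmgcs1 -0.036. With the Gapdh ratio, the difference over both sexes was -0.044 for Mvk-r, 0.32 for Mvk-f, -0.14 for Fdps-f and -0.72 for Fdps-at, that in males -0.32 for Mvk-r, that in females -0.068 for Mvk-r and -0.074 for Fdps-f, and the interaction 0.25 for Mvk-r and 0.22 for Sqle. With the number letters as a block, Mvk-r in females was -0.033 and Sqle in males 0.035. In B4 animals, where wild-type 3 was the only wild-type female, the female difference was -0.048 for Mvk-r, 0.044 for Idi1, 0.052 for Fdps-at and 0.053 for Sqle, and the interaction of Sqle 0.092. Leaving out wild-type 5 compares the same females. Without the male null arrays, which leaves the difference within females, Mvk-f was 0.17 and Fdps-at -0.30. With 1 mouse left out, female differences ranged from -0.39 to 0.16 for Fdft1, -0.20 to 0.20 for Fdps-f, -0.66 to 0.052 for Fdps-at, -0.27 to 0.044 for Idi1, -0.0099 to 0.27 for Mvk-f, -0.048 to 0.28 for Mvk-r and -0.53 to 0.053 for Sqle, the male difference of Cyp51 from -0.086 to 0.28, and interactions from -0.020 to 0.53 for Fdft1, -0.15 to 0.18 for Hmgcs1 and -0.42 to 0.16 for Sqle.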
